A study of Mus musculus with 6 samples.

Results

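The 115 genes described here are the mouse microRNA genes that gave signal on an expression array of the yolk sac at embryonic day 9.5. A gene was taken where the array's annotation gave its probe set a single microRNA symbol and where the mean deposited log2 value of that probe set over all 6 arrays was 4.29 or more. Symbols counted as microRNA symbols where Mir preceded a number, where they began with Mirlet, or where a Mir symbol ended in hg, the form used for a long host transcript. Of 300 microRNA genes measured in this way, 115 reached the limit and 185 did not, among 19938 genes that the table names with a single symbol. The signal itself therefore chose these genes, and levels are given below as a description with no test. The rule itself uses no difference between genotypes. The limit is the 30th percentile of the named probe sets, and a value is the log2 of array brightness, so a step of 1 is a doubling. Just inside the limit lay Mir128-2 at 4.31, Mir1839 at 4.32 and Mir335 at 4.33, and just outside it lay Mir501 at 4.27, Mir449c at 4.23 and Mir362 at 4.19.

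The samples were yolk sacs of 3 wild-type littermates and of 3 embryos homozygous for a gene-trap allele of Tnrc6a, which encodes GW182. Each yolk sac was dissected from 1 embryo, its total RNA was extracted with Trizol, and each RNA was labelled and read on its own Affymetrix Mouse Gene 1.0 ST array. Both genotype labels add "mixed" without saying what was mixed, and they give neither the trap's place in the gene nor how much of its transcript remains. The yolk sac at this stage is a bag of visceral endoderm, mesoderm, blood vessels and primitive red cells. Markers of visceral endoderm were bright in every library, with mean log2 values of 8 genes between 10.88 and 11.12.

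MicroRNAs are cut from long primary transcripts, first in the nucleus by Drosha with Dgcr8 and then in the cytoplasm by Dicer1, and the short mature strand is loaded into an Argonaute protein. The seed at the 5′ end of the mature strand pairs with target messages, and GW182 proteins bind Argonaute and bring in the enzymes that shorten the tail of those messages. GW182 thus acts after the microRNA has been made. Arrays of this kind were built for long RNA: a probe set in a microRNA gene reads primary or precursor RNA or the host gene's intron, and its signal does not measure the mature strand.

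The targeted gene left the label of 1 library in doubt. Its wild-type values, in replicate order, were 8.40, 7.62 and 8.29, and the libraries labelled mutant 1 to 3 read 7.81, 5.33 and 5.20. The library labelled mutant 1 lay within the wild-type range, so directions below that rest on it carry that doubt, and results are also given without it. Wild type 2 stood apart in another way. The mean of 5 trophoblast and decidua markers exceeded the average wild type by 1.01 in wild type 2 and by 0.98 in mutant 2, but its deviation was -0.39 to -0.76 in the other 4 libraries. On the same scale, red cell markers stood at -0.76 in mutant 2, and endothelial markers at 0.51 and hypoxia genes at 0.69 in mutant 3. Mutant means were lower for 9 of 9 tested red cell markers and higher for 8 of 8 endothelial markers, where 52.4% of all tested probe sets were higher. At an unadjusted limma p under 0.05 these were 2 and 3 genes, with 0 after adjustment. Among all tested probe sets 1.28% were lower and 2.25% higher at that p. The endothelial deviation was also 0.26 in mutant 2 and 0.21 in wild type 2. The red cell deviation was -0.11 in mutant 3, close to -0.085 in wild type 2. The library labelled mutant 1 stood at -0.056, wild type 1 at 0.016 and wild type 3 at 0.069. On average, most of the red cell shift thus lay in mutant 2. The part of these shifts in any result below was not tested.

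Mature sequences are shown for the genes the comparisons turn on. They come from RefSeq (GRCm38.p6), are written 5′ to 3′, and have the seed, bases 2 to 8, in capitals. Of the 115 genes, 101 had 1 or more mature sequences in that table. The first set are the 7 genes whose mutant and wild-type values did not overlap, which are described further on:
miR-212-3p, chr11:75173443-75173464, plus strand: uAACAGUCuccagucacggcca
miR-679-5p, chr12:109715587-109715608, plus strand: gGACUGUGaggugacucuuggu
miR-688, chr15:102671802-102671821, minus strand: uCGCAGGCgacuacuuauuc
let-7i-5p, chr10:122985698-122985719, minus strand: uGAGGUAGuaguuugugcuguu
miR-15a-5p, chr14:61632075-61632096, minus strand: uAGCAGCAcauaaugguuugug
miR-375-5p, chr1:74900696-74900717, minus strand: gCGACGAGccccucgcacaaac
miR-692, chr17:6895259-6895279, minus strand: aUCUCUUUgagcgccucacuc

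A second set shows seeds that 2 genes share, since such genes can act on the same messages whichever of them is transcribed. The let-7i strand above shares its seed with let-7e, and miR-15a-5p shares its seed with miR-497a-5p. The other pairs shown are miR-25 with miR-92b and miR-181c with miR-181d:
let-7e-5p, chr17:17830366-17830387, plus strand: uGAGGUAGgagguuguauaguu
miR-497a-5p, chr11:70234730-70234751, plus strand: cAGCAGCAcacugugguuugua
miR-25-3p, chr5:138165332-138165353, minus strand: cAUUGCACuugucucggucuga
miR-92b-3p, chr3:89227126-89227147, minus strand: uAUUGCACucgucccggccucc
miR-181c-5p, chr8:84178924-84178945, minus strand: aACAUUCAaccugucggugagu
miR-181d-5p, chr8:84178759-84178781, minus strand: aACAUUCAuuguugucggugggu

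The third set comes from the Dlk1-Dio3 region of chromosome 12, the largest cluster among the genes with signal, and was chosen from its brightest genes and from those that varied most between libraries. Its strands start on different seeds although the genes lie side by side:
miR-127-3p, chr12:109592888-109592909, plus strand: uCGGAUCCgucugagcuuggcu
miR-341-3p, chr12:109611556-109611576, plus strand: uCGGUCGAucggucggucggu
miR-329-3p, chr12:109713541-109713562, plus strand: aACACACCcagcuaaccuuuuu
miR-300-3p, chr12:109724363-109724384, plus strand: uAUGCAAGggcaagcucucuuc
miR-381-3p, chr12:109726870-109726891, plus strand: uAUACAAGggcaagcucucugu
miR-134-5p, chr12:109734145-109734166, plus strand: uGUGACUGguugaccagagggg

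Counted over all mature strands in the table, the 101 genes held 183 sequences with 171 distinct seeds. Only 11 seeds were shared by 2 or more of the genes, and 21 genes took part. Most of these were copies or near copies of 1 microRNA, such as Mir194-1 with Mir194-2, Mir138-1 with Mir138-2, and Mir680-1, Mir680-2 and Mir680-3. In the Dlk1-Dio3 region 29 genes held 55 mature strands with 55 distinct seeds and shared none among themselves.

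The signals of the 115 genes ran from 4.31 to 9.06, with a median of 5.46. Of these, 36 genes lay under 5, 38 between 5 and 6, and 41 at 6 or above. The 15 genes with the highest signal were Mir692-1 at 9.06, Mir341, Mir679, Mir134, Mir668, Mir320, Mir382, Mir187, Mir346, Mir329, Mir127, Mir667, Mir328, Mir598 and, at 6.71, Mir210. Of these 15, 8 lie in the Dlk1-Dio3 region. Probe sets differ in how strongly they bind, so this order ranks probe sets and not amounts of RNA. Many genes sat close to the limit: 15 had at least 1 array under 4.29, and 3 had 1 genotype mean under it. Mir713 had 3 probe sets and Mir99ahg had 4, and in each gene only 1 probe set reached the limit.

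Base composition moved with the signal. RefSeq held a hairpin for 258 of the 300 measured genes, 92 of them with signal. Across these 258 genes the G and C share of the hairpin and the mean signal had a Spearman correlation of 0.66 and a Pearson correlation of 0.64. These genes share the same 6 arrays and the same processing, and the correlation is a description. The median G and C share was 55.7% in the genes with signal and 45.2% in the genes below the limit. Where the share was 60% or more, 25 of 26 genes had signal, and where it was under 40%, 4 of 36 had. Within the 92 genes with signal the Spearman correlation was 0.18. These genes were chosen by a limit on the same signal, and cutting its range tends to lower a correlation by construction. The value of 0.18 therefore cannot show whether the relation is weaker among genes with signal. How far the signal of a hairpin probe set reflects its base composition rather than its RNA was not tested.

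The Dlk1-Dio3 genes also read higher with more G and C, but at a higher level than genes elsewhere. Their median signal was 3.04 under 40% and 7.34 from 55% to 60%, against 1.63 and 4.71 elsewhere. Of 25 of them with a G and C share under 50%, 15 had signal, against 10 of 126 genes elsewhere. Elsewhere in the genome the Spearman correlation was 0.79 over 219 genes, and in the region it was 0.56 over 39. Hairpins show the contrast, with G and C in capitals. The hairpin of Mir212 holds 69.2% G and C and its gene read 6.02, whereas the hairpin of Mir381 holds 40% and its gene read 5.51. The hairpin of Mir144, a microRNA of red cells, holds 37.9%, and its gene read 2.31 in a tissue rich in red cells:
Mir212, chr11:75173388-75173478, plus strand: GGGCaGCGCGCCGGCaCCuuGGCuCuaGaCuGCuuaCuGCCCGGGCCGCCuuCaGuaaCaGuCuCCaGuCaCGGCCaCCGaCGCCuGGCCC
Mir381, chr12:109726822-109726896, plus strand: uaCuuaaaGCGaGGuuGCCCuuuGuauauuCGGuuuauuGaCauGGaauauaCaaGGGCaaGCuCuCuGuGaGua
Mir144, chr11:78073005-78073070, plus strand: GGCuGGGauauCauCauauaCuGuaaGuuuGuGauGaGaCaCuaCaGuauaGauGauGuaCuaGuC

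**Figure D1:**
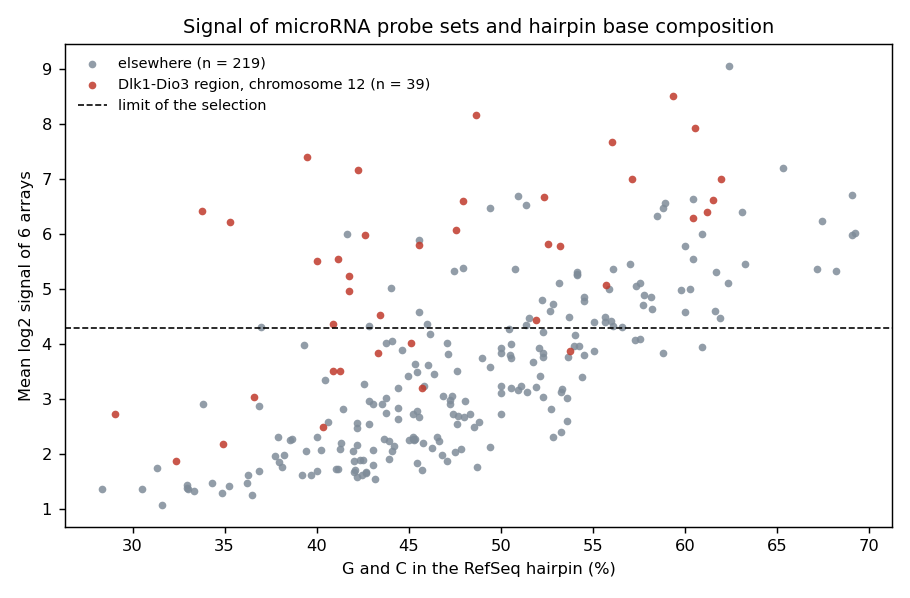
Mean log2 signal over 6 arrays (vertical axis) against the percentage of G and C in the RefSeq hairpin (horizontal axis), 1 point per microRNA gene, with 39 genes of the Dlk1-Dio3 region in red, 219 genes elsewhere in grey, and the limit of 4.29 as a dashed line. The points climb with G and C elsewhere (Spearman correlation 0.79) and in the region (0.56). Below 50% G and C the limit is passed by 15 of 25 red points but by 10 of 126 grey ones.

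Genes with signal were spread over the chromosomes but unevenly. Chromosome 12 held 33 of the 115, 29 of them in the Dlk1-Dio3 region, and the X chromosome held 6 of its 39 measured genes. In the Dlk1-Dio3 region 29 of 40 measured genes had signal (72.5%), against 86 of 260 elsewhere (33.1%). With neighbours joined where no more than 10 kb lay between them, 8 clusters of 2 or more genes with signal held 41 genes and 74 genes stood alone. With 50 kb allowed, 7 clusters held 43.

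The Dlk1-Dio3 region is imprinted: its microRNAs are made from long noncoding RNAs of the maternal chromosome, while Dlk1 and Rtl1 are expressed from the paternal one. Its genes with signal fell into 3 clusters. Mir673, Mir337, Mir540, Mir665, Mir431 and Mir127 lie beside Rtl1, some of them antisense to it. Mir341 and Mir370 lie within Rian. The other 21 of 30 measured genes form the long row that ends in Mirg. The long RNAs of the region were themselves bright, with Meg3 between 10.46 and 10.78 and Rian between 8.23 and 8.78. Rtl1, the paternally expressed retrotransposon-like gene, read 5.77, 5.81 and 5.58 in wild types 1 to 3 and 6.14, 5.89 and 6.06 in the libraries labelled mutant 1 to 3. The mutant values of Rtl1 all lay above the wild-type ones, and limma gave a difference of 0.31 with an SE of 0.10, an unadjusted p of 0.0175 and an adjusted p of 0.999. Without the library labelled mutant 1 the difference was 0.26 and the unadjusted p 0.0630, and without wild type 3 they were 0.24 and 0.0634.

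MicroRNAs known for single cell types of the yolk sac were mostly below the limit. Among red cell microRNAs, Mir144 lay between 2.02 and 2.72 and Mir451a between 2.65 and 3.27, whereas Mir3107, which RefSeq places over the red cell ankyrin gene Ank1, had signal. Mir126a, the endothelial microRNA in an intron of Egfl7, lay between 2.18 and 2.43, although Egfl7 itself read between 7.84 and 8.48. Of 8 endothelial and blood genes listed, only Mir150 had signal. None of 5 genes of the Mir302 and Mir367 cluster of pluripotent cells had signal, nor had Mir122, Mir192 and Mir215, known from liver and gut. Of 11 epithelial and endodermal genes, Mir194-1, Mir194-2, Mir200a and Mir375 had signal. A value below the limit does not show that the microRNA was absent, since mature strands are not read.

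The Mir17 cluster, which promotes cell division, was seen through its host transcript Mir17hg and not through Mir17, Mir18, Mir19a, Mir19b-1 or Mir20a. Of 14 measured genes of this cluster and its paralogues, Mir17hg, Mir25 and Mir93 had signal. Mir17hg read 5.45, 5.45 and 5.47 in wild types 1 to 3 and 5.42, 5.16 and 5.83 in the libraries labelled mutant 1 to 3. The wild types were nearly equal, while mutant 2 was the lowest and mutant 3 the highest of all. Of 18 genes of the let-7 family and its neighbours, Mirlet7i, Mirlet7e, Mir99b, Mir125a and the host transcript Mir99ahg had signal. Mir335 and Mir483, which lie in the imprinted genes Mest and Igf2, and Mir296 had signal among 4 measured genes of imprinted loci outside chromosome 12.

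Between the genotypes, no microRNA gene was called. At a Benjamini-Hochberg adjusted p under 0.05 limma called 0 of the 115, and 0 of all 16387 probe sets tested (0%). The lowest adjusted p of the 115 was 0.999. At an unadjusted p under 0.05 the count was again 0 of 115, where 369 tested probe sets (2.25%) were higher and 210 (1.28%) lower in the mutants, 3.53% in all. The lowest unadjusted p was 0.087, for Mir212. The differences were small: they ran from 1.15-fold lower to 1.19-fold higher in the mutants, and 83 of the 115 were within 0.1 of 0 on the log2 scale. The widest 95% intervals reached 1.43-fold lower and 1.60-fold higher, or -0.52 and 0.68 on the log2 scale. Without the library labelled mutant 1 they reached -0.61 and 0.695, and without wild type 3 the highest bound was 0.84. Each interval holds for 1 gene at a time, so they do not bound the changes of all 115 genes together. In bulk tissue, fewer cells of a type and less RNA per cell cannot be told apart.

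The direction of the 115 genes as a whole changed with the libraries used. The mutant mean was higher for 67 and lower for 48, with a median difference of 0.022, where 8590 of 16387 tested probe sets (52.4%) were higher and their median was 0.0063. The median was -0.0069 without the library labelled mutant 1 and -0.0049 without wild type 2. Leaving out both gave -0.036, with 45 genes higher and 70 lower. Without wild type 1, which was the highest wild type on average, the median was 0.058, and without mutant 3 it was 0.049. The median range of a gene over the 6 arrays was 0.33, against 0.35 for all tested probe sets, and thus wider than the largest difference between genotypes.

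**Figure D2:**
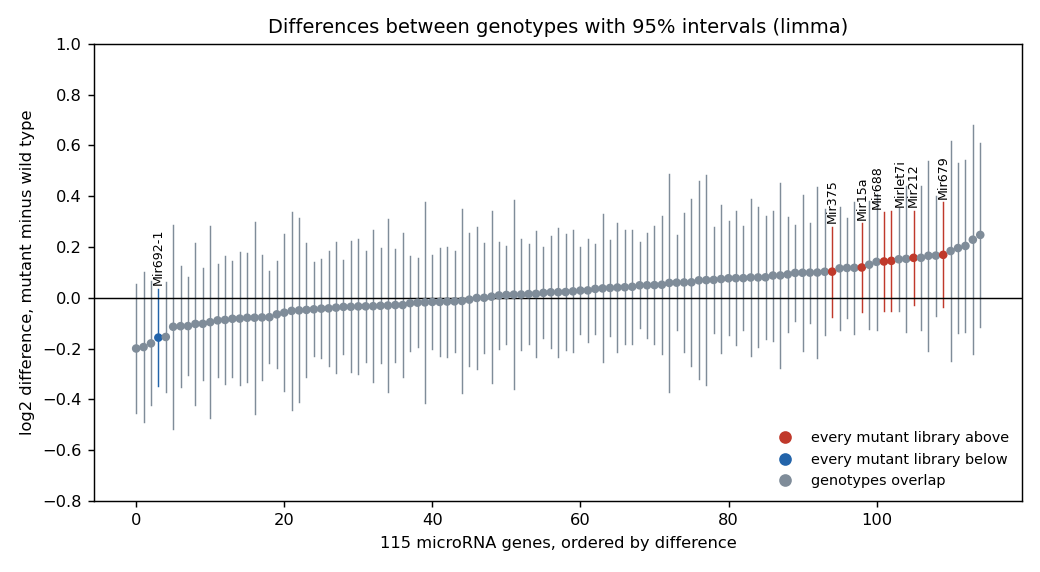
Log2 difference, mutant minus wild type, with its 95% interval from limma (vertical axis) for the 115 microRNA genes in order of difference (horizontal axis), 3 against 3 libraries. Points run from -0.20 to 0.25 and every interval crosses 0, also for the 7 named genes whose genotypes did not overlap.

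In 7 genes, 6.09% of the 115, the mutant and wild-type values did not overlap, where 8.55% of all tested probe sets did not. Every mutant value lay above in 6 of the 7 and below in 1, against 5.17% above and 3.38% below among all tested probe sets. The share is no larger than the background, so it is not a result about microRNA genes. Without the library labelled mutant 1 the count was 14, where 17.7% of all tested probe sets did not overlap, and without wild type 2 it was 17, against 20.9%. With 3 libraries against 3, an exact two-sided permutation test cannot give less than 0.1, which each of the 7 reached. Values that do not overlap give 0.1 by construction, so this is no separate support.

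Mir212 is a partner of Mir132 in a cluster known for responses to neuronal activity and growth factors. It read 5.95, 5.94 and 5.94 in wild types 1 to 3 and 6.20, 6.08 and 6.02 in the libraries labelled mutant 1 to 3. The wild types were nearly equal, and the library labelled mutant 1 was the highest. The difference was 0.16 with an SE of 0.080 and an unadjusted limma p of 0.087, and it was 0.11 without that library. Its neighbour Mir132 was below the limit.

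Mir679, of the Dlk1-Dio3 region, read 8.10, 8.12 and 8.03 in wild types 1 to 3 and 8.12, 8.31 and 8.33 in the libraries labelled mutant 1 to 3. Only 0.00093 separated the library labelled mutant 1 from wild type 2, so the lack of overlap hung on that pair, and centring each array on its median ended it. The difference was 0.17 with an SE of 0.088, and 0.24 without the library labelled mutant 1.

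Mirlet7i belongs to the let-7 family, which promotes differentiation and is blocked by Lin28a and Lin28b in early embryos. It read 5.25, 5.09 and 5.20 in wild types 1 to 3 and 5.29, 5.27 and 5.42 in the libraries labelled mutant 1 to 3. Wild type 2 was the lowest and mutant 3 the highest. The difference of 0.15 (SE 0.085) fell to 0.10 without wild type 2.

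The remaining 3 genes higher in every mutant library differed by less. Mir15a, whose mature strand restrains cell cycle and survival genes, had means of 5.70 ± 0.055 and 5.82 ± 0.023 (SD, n = 3 each). Mir375, known from pancreatic islets and other endocrine cells, had means of 5.31 ± 0.064 and 5.42 ± 0.027 (SD, n = 3 each). Mir688 had means of 4.99 ± 0.038 and 5.14 ± 0.098 (SD, n = 3 each). Without the library labelled mutant 1 the difference of Mir688 fell from 0.14 to 0.088, and without wild type 2 that of Mir375 fell from 0.10 to 0.066. The closest mutant and wild-type libraries were 0.060 apart for Mir15a, 0.031 for Mir375 and 0.033 for Mir688.

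Mir692-1 was the gene with every mutant value below, and it had the highest signal of the 115. It read 9.17, 9.16 and 9.09 in wild types 1 to 3 and 9.0, 8.88 and 9.06 in the libraries labelled mutant 1 to 3. The difference was -0.16 with an SE of 0.082, and -0.17 without the library labelled mutant 1. The 3 Mir692 genes of RefSeq hold 1 and the same mature sequence, and other Mir692 probe sets of the array carry the symbol of Ftl1, the ferritin light chain, as well. The probe set that names Ftl1 alone read 11.80, 11.74 and 11.87 in wild types 1 to 3 and 11.77, 11.65 and 11.66 in the libraries labelled mutant 1 to 3, a difference of -0.11. Whether the probe set of Mir692-1 reads ferritin RNA was not tested.

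**Figure D3:**
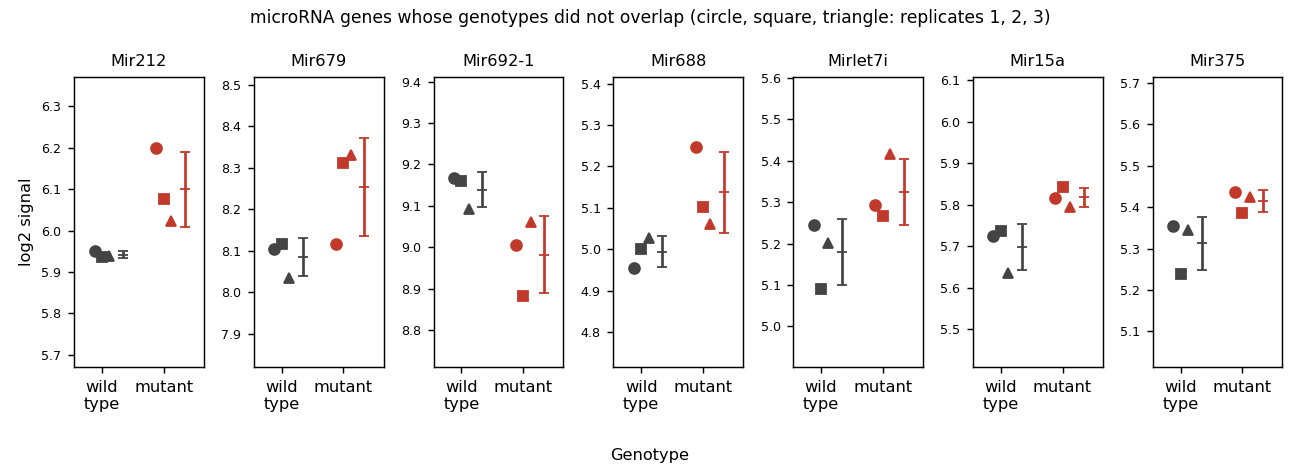
Log2 signal of each library (vertical axes, each spanning the same width) for the 7 microRNA genes whose genotypes did not overlap, with circles, squares and triangles for replicates 1, 2 and 3, wild type in grey and mutant in red, and the mean ± SD (n = 3) beside them. The mutant circle is the library labelled mutant 1, which is the highest for Mir212 (6.20) and touches the wild types for Mir679 (8.12).

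Mir717, Mir200a and Mir152 were also among the 8 genes with the lowest p, and their genotypes overlapped. Mir717 had the lowest mutant mean relative to wild type, with 5.16, 5.29 and 4.91 in wild types 1 to 3 and 4.93, 4.94 and 4.89 in the libraries labelled mutant 1 to 3. Wild type 3 lay among the mutants, and the difference of -0.20 (SE 0.11, 1.15-fold lower) was -0.11 without wild type 2 and -0.31 without wild type 3, where its unadjusted limma p was under 0.05. Mir200a, of the family that keeps cells epithelial, differed by 0.15 and by 0.11 without the library labelled mutant 1. Mir152, which targets the DNA methyltransferase Dnmt1, read 4.65, 4.72 and 4.73 in wild types 1 to 3 and 4.72, 4.39 and 4.44 in the libraries labelled mutant 1 to 3. The library labelled mutant 1 matched the wild types for Mir152, and without it the difference went from -0.18 to -0.28, while without mutant 2 it was -0.12.

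Mir210, the microRNA most closely tied to hypoxia, read 6.77, 6.72 and 6.80 in wild types 1 to 3 and 6.55, 6.72 and 6.69 in the libraries labelled mutant 1 to 3. Mutant 3, the library with the raised hypoxia genes, was not high for Mir210.

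The genes with the widest spread are described by library. The 8 genes with the largest range over the 6 arrays were Mir300 (0.79), Mir713, Mir154, Mir1839, Mir380, Mir17hg, Mir539 and Mir381 (0.66), and 5 of them lie in the Dlk1-Dio3 region. In 6 of the 8 the highest and the lowest library were of the same genotype, and in Mir380 and Mir381 they were wild type 3 and mutant 2. The same count was not made for all tested probe sets, so it is a description only. Mir300 read 5.72, 6.21 and 5.42 in wild types 1 to 3 and 5.85, 5.84 and 5.83 in the libraries labelled mutant 1 to 3. Both its highest and its lowest value were wild type, and the mutants lay between them. Mir154 read 4.28, 4.10 and 4.36 in wild types 1 to 3 and 4.75, 4.01 and 4.66 in the libraries labelled mutant 1 to 3. Here the spread lay among the mutants, with mutant 2 below every wild type.

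The genes of the Dlk1-Dio3 region shared a low library. Wild type 3 was the lowest of the 6 libraries for 15 of 29 genes of the region (51.7%), among them 12 of the 21 in the row that ends in Mirg. It was the lowest for 11 of 86 microRNA genes elsewhere (12.8%) and for 15.3% of all tested probe sets. On average the region's genes deviated from the wild-type mean by -0.13 in wild type 3, and by 0.043 to 0.089 in the other 5 libraries. Mir381 showed it most fully, with 5.67, 5.45 and 5.03 in wild types 1 to 3 and 5.62, 5.69 and 5.58 in the libraries labelled mutant 1 to 3. Mir329, Mir382 and Mir539 had the same low library, at 6.73, 7.02 and 6.06. Rian was lowest there too, at 8.23, and so were Meg3 at 10.46, Rtl1 at 5.58 and the probe set that names Mirg with Mir410 at 7.31. Other genes of the region were not: Dlk1 was lowest in wild type 1 at 10.41, Dio3 in mutant 2 at 5.06, and the probe set that names Mir433 in mutant 3 at 6.13.

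The region's lean between genotypes changed with the library left out. The mutant mean was higher for 24 of the 29 genes, with a median difference of 0.069, and 0 of the 29 had an unadjusted limma p under 0.05. Without wild type 3 the count was 15 of 29 and the median 0.0020. Without the library labelled mutant 1 it was 20 of 29 with a median of 0.042, and without wild type 2 it was 24 of 29 with a median of 0.072. The median was higher without wild type 1, at 0.104 with 24 of 29, and without mutant 3, at 0.106 with 23 of 29. The largest single difference of the 115 genes was 0.25 for Mir381 (SE 0.16, unadjusted limma p 0.152). It was 0.071 without wild type 3 and 0.39 without wild type 1, where its unadjusted limma p was under 0.05.

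**Figure D4:**
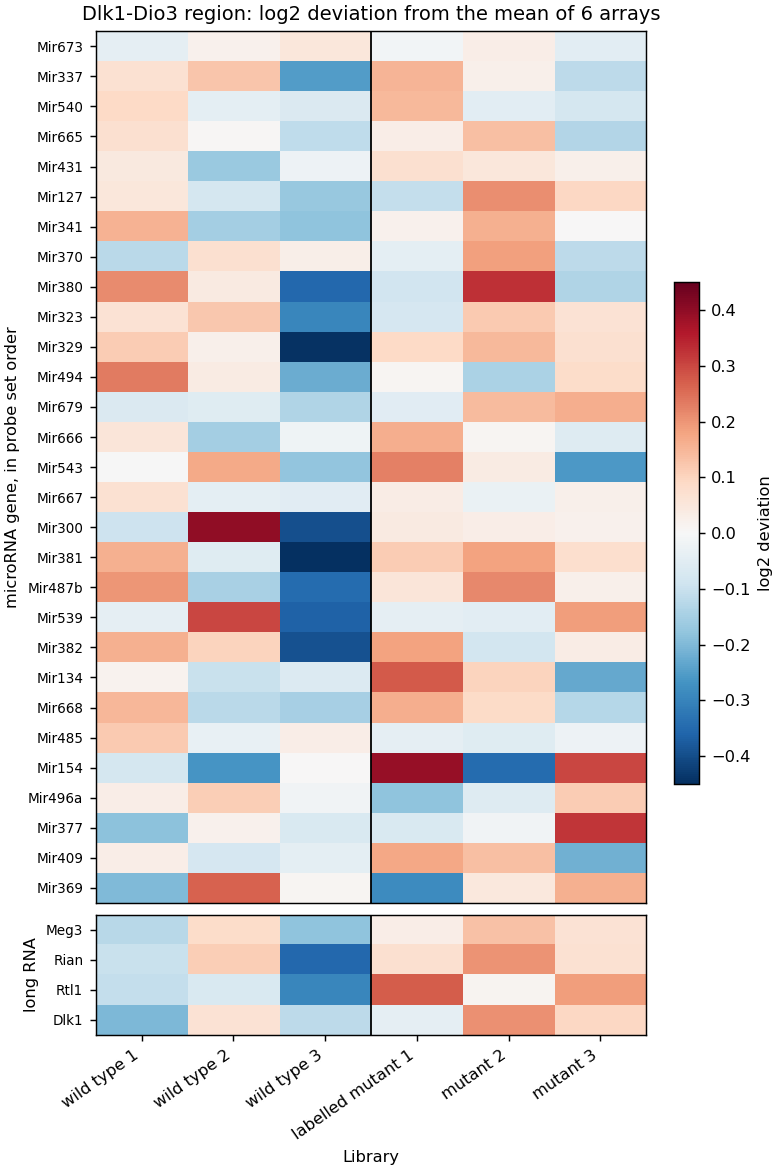
Log2 deviation of each library (columns, wild types left of the line) from the mean of the 6 arrays, for 29 microRNA genes of the Dlk1-Dio3 region in probe set order and for 4 long RNAs of the region (rows), with red above and blue below the mean. Wild type 3 is the lowest library for 15 of the 29 genes, 12 of them in the row that ends in Mirg, and for Meg3, Rian and Rtl1.

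Outside the region other libraries stood out. Of 86 microRNA genes elsewhere, 43 were higher and 43 lower in the mutants, with a median difference of 0.0045. Wild type 2 was the lowest library for 32 of the 86 (37.2%, against 15.7% of all tested probe sets). The library labelled mutant 1 was the highest for 28 of them (32.6%, against 15.9%). Without wild type 2 the mutant mean was higher for 31 of the 86 with a median of -0.030, and without the library labelled mutant 1 for 35 with a median of -0.027. Without wild type 1 it was higher for 59 with a median of 0.037, and without mutant 3 for 56 with a median of 0.039. Wild type 2 is also the library with high trophoblast and decidua markers. Its mean deviation was 0.56 for 8 mesenchyme and smooth muscle markers, against -0.34 and -0.21 in wild types 1 and 3, and 0.21 for 8 endothelial markers, against -0.13 and -0.077. The part of these in the low microRNA signals was not tested.

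Genes cut from 1 transcript were set side by side. Mir99b, Mirlet7e and Mir125a lie together in Spaca6 on chromosome 17, a trio kept together in evolution, and all had higher mutant means, by 0.14, 0.15 and 0.080. Mirlet7e read 5.19, 4.87 and 5.08 in wild types 1 to 3 and 5.21, 5.02 and 5.37 in the libraries labelled mutant 1 to 3, so the genotypes overlapped and wild type 2 was the lowest. Without wild type 2 the 3 differences were 0.082, 0.063 and -0.049. Mir25 and Mir93, in an intron of the replication gene Mcm7, were higher by 0.077 and 0.17, while Mcm7 was lower by 0.059. Without wild type 2 the difference of Mir25 was -0.00038 and that of Mir93 was 0.23.

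The other small clusters were level or lower. Mir23a, Mir27a and Mir24-2, a cluster of chromosome 8 known from blood vessels and blood, differed by -0.036, -0.078 and -0.032. Mir181c and Mir181d, neighbours on the same chromosome that share a seed, differed by -0.042 and -0.039. On chromosome 2, Mir669b differed by -0.0073 and Mir297b by -0.19, the second with wild type 1 at 6.38 above 5 libraries between 5.86 and 5.98. None of these differences had an unadjusted limma p under 0.05. Probe sets of the many Mir467 and Mir669 copies beside them, which lie in the gene Sfmbt2, carry several symbols and were left out of the 115: 22 such probe sets held only 2 distinct rows of values.

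Pairs that share a seed did not always lean the same way. The let-7 genes Mirlet7i and Mirlet7e were both higher in the mutants, by 0.15 and 0.15. Mir15a was higher by 0.12 and Mir497 by 0.0092. Mir25 was higher by 0.077 and Mir92b lower, by -0.087, and no pair was tested for a difference between its genes.

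Of 103 microRNA genes with a known strand, 42 lie on the same strand within a longer gene. For 27 of them that host gene was itself tested, which gave 23 hosts. The difference of host and microRNA had the same sign in 17 of 27 pairs, with a Pearson correlation of 0.20 and a Spearman correlation of 0.17 across pairs, which share the same 6 libraries. None of the 23 hosts had an unadjusted limma p under 0.05, and the lowest was 0.070, for Tango2, the host of Mir185. Mir185 and Tango2 were both lower in the mutants, by -0.10 and -0.19.

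Some hosts read far above the microRNA gene within them. Mest, an imprinted gene of mesoderm, read between 11.58 and 12.12, and Mir335 within it between 4.27 and 4.44. Their differences were 0.16 (SE 0.14) for Mest and -0.046 (SE 0.079) for Mir335. Igf2, the embryonic growth factor, differed by 0.21 (SE 0.12) and its Mir483 by -0.036 (SE 0.11). The proteoglycan gene Gpc3 differed by 0.058 (SE 0.12) and its Mir717 by -0.20 (SE 0.11). Copz2 differed by -0.029 (SE 0.26) and its Mir152 by -0.18 (SE 0.10). A further 43 microRNA genes below the limit also lay in hosts that were tested.

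**Figure D5:**
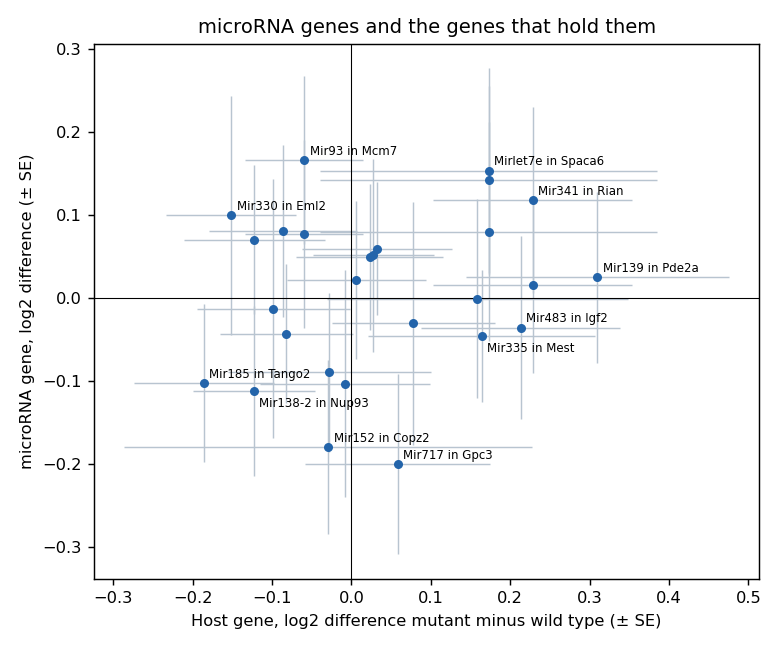
Log2 difference, mutant minus wild type, of the host gene (horizontal axis) and of the microRNA gene within it (vertical axis) for 27 pairs, with bars of ± 1 SE from limma on 3 against 3 libraries. The signs are the same in 17 of 27 pairs, and every host and microRNA difference lies between -0.20 and 0.31.

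On the X chromosome all 6 genes with signal, Mir680-2, Mir504, Mir717, Mir188, Mir448 and Mir505, had mutant means below the wild-type mean, with differences from -0.20 to -0.00012. Among all tested probe sets 52.4% were higher in the mutants, and Mir448 and Mir504 were level, at -0.00012 and -0.00077. Mutant 3 was the lowest library for 5 of the 6, against 17.4% of all tested probe sets, with a mean deviation of -0.16 from the wild types. Xist, the RNA that silences 1 X chromosome in females, read 9.87, 3.58 and 3.90 in wild types 1 to 3 and 9.63, 3.74 and 10.003 in the libraries labelled mutant 1 to 3. Mutant 3 was thus 1 of 3 libraries with high Xist. For the 6 genes, the library labelled mutant 1 had a mean deviation of 0.032, wild type 1 of 0.00064 and mutant 2 of -0.041. On average, the lower mutant values thus lay mostly in mutant 3. Whether X dosage bears on these genes was not tested.

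Genes that make microRNAs were measured on the same arrays. Of 24 tested genes of a list of processing factors, 16 were higher and 8 lower in the mutants, and 1 had an unadjusted limma p under 0.05, with 0 after adjustment. Among all tested probe sets 52.4% were higher and 3.53% had such a p. That gene was Ago2, the Argonaute protein that can cut its target, with 8.70, 8.77 and 8.69 in wild types 1 to 3 and 9.0, 8.97 and 8.89 in the libraries labelled mutant 1 to 3. All mutant values of Ago2 lay above all wild-type values, and the limma difference was 0.24 (unadjusted p 0.016, adjusted p 0.999). Ago2 was 1 of 3 genes of the list with every mutant value above, and 0 had every mutant value below. The shares among all tested probe sets were 5.17% and 3.38%. The unadjusted limma p of Ago2 was 0.055 without the library labelled mutant 1 and 0.051 without wild type 1. Drosha, which cuts primary transcripts, differed by 0.17, Dicer1, which cuts the hairpin, by 0.16, and Tarbp2, the partner of Dicer1, by 0.14. Among the lower genes were Ran and Xpo5, which carry the hairpin out of the nucleus, at -0.15 and -0.093. The let-7 inhibitor Lin28a differed by -0.15 and Lin28b by 0.077.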

How the data were processed

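The authors deposited 1 table of log2 values for 35557 probe sets on 6 arrays. The submitters' processing notes name MAS5. How background was corrected and arrays were normalized, and the genome build, are not stated in the sources used here. Values spanned 0.657 to 13.7 and array medians 5.19 to 5.22, which is the basis for reading them as log2. They were used as deposited.

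Gene names came from the platform annotation held by GEO: 21789 had 1 symbol, 1621 several and 12147 none. Another 61 microRNA probe sets named several symbols and gave no member. The 16387 named probe sets with a mean of 4.29 or more were fitted as 3 mutant against 3 wild-type libraries, without a block, in R 4.3.3 with lmFit and eBayes of limma 3.58.1, and p values were adjusted over all of them by Benjamini-Hochberg. The fit was first tested on simulated data. Precision is limited by the number of arrays. For a gene with several probe sets the brightest was used. Positions, strands, hosts and sequences came from RefSeq (GRCm38.p6), which matched all 115 genes by position and 101 by mature sequence.

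Named genes were the 15 brightest, the 8 with the lowest p, the 8 with the widest range, 3 on each side of the limit, and listed groups of cell-type, imprinted and clustered microRNAs. Genes singled out beyond these were chosen after their values were seen. The members and lists were chosen with earlier results of these data known. Alternatives were quantile normalization, median centring, other filters, probe sets without a symbol, a trended robust variance, array weights, the methods' t-test, a replicate block, averaged probe sets of a gene, and left-out libraries. Sequences of chromosome 18 genes are not shown.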

Additional observations from a re-analysis of the deposited data

How the results depend on the processing

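No microRNA gene passed an adjusted p of 0.05 in any of the 17 alternatives. Of 131 recomputed differences of the 8 genes with the lowest p, 131 kept their direction. These genes were chosen by their low p in the same arrays, and several alternatives leave a difference unchanged by construction. Their kept direction is therefore no separate support. Higher genes at an unadjusted p under 0.05, 0 as reported, numbered 3 with no filter (Mir378a, Mir181a-2 and Mir452, all below the limit), 2 with array weights and 2 by the methods' t-test (Mir212 and Mir15a; 0 after Benjamini-Hochberg). They numbered 1 to 3 with 1 library left out. Among all tested probe sets such calls made up 2.26%, 3.89% and 2.36% in the first 3 of these settings and 1.32% to 3.80% with 1 library left out. Lower genes, also 0, numbered 1 with array weights, where 2.74% of all tested probe sets were such calls. They numbered 2 when wild type 2 and mutant 1, as labelled, were both dropped (Mir152 and Mir365-1), against 1.82%. With 1 library left out they numbered 0 to 3, against 0.854% to 4.57%. The 3 came without wild type 3, where the share was 0.854%. Genes without overlap, 7 as reported, numbered 17 of 300 (5.67%) with no filter and 4 of 50 (8.0%) with a filter at the median signal. Among all tested probe sets the shares were 8.52% and 8.73%. With 1 library left out such genes numbered 14 to 22 (all tested probe sets 14.2% to 27.5%). When wild type 2 was dropped together with the library labelled mutant 1 they numbered 41, where 35.6% of all tested probe sets did not overlap. Fewer libraries make overlap rarer by construction. The median difference ran from -0.0069 to 0.0579 with 1 library left out and was -0.0357 without both. Hosts at an unadjusted p under 0.05, 0 as reported, numbered 1 by the methods' t-test, 5 without both libraries and 0 to 3 with 1 left out. Processing genes, 1 as reported, numbered 2, 3 and 0 to 1 in the same settings. Among all tested probe sets such calls made up 3.83%, 7.16% and 2.41% to 8.37% in these settings. Apart from fewer libraries or other filters, the cause of these shifts was not tested.

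Libraries with the same replicate number correlated at 0.45, 0.15 and -0.11 in their deviations from group means. Wild-type and mutant libraries of unlike number correlated at -0.45 to 0.24. With 3 libraries a group this check cannot show whether the numbers pair the samples. With the replicate number as a block, 0 microRNA genes had an unadjusted p under 0.05, the median difference was 0.0221 and 7 genes did not overlap, while 727 of all tested probe sets passed in place of 579. Signals near the limit, unknown processing and 3 libraries a group limit every value here, and the label of 1 mutant library is in doubt.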
